A study of Homo sapiens with 8 samples.

Results

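The 10 genes described here encode NF-kappaB subunits and regulators of the pathway. The subunits are the precursor subunits NFKB1 and NFKB2 and the transactivating subunits RELA, RELB and REL. The regulators are the IkappaB inhibitors NFKBIA, NFKBIB and NFKBIE, and the ubiquitin-handling regulators TNFAIP3 and BIRC3. These genes were chosen by gene symbol and make up 10 of the 23346 genes listed in the table. Expression was measured by sequencing polyadenylated RNA, prepared with an Illumina TruSeq kit, from hCMEC/D3, a cell line derived from the endothelium of human brain capillaries and grown to model the blood-brain barrier in culture. All 8 libraries were labelled as replicates of this line and formed 1 group, with no treatment, time point or other condition named, and there was thus nothing to compare by condition. The labels do not say whether the replicates came from separate cultures, so the spread between them may be technical. Every p-value refers to these samples only. In a cell line measured in bulk, fewer expressing cells and less RNA per cell cannot be told apart.

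NF-kappaB factors are dimers of Rel-homology proteins that are kept in the cytoplasm of resting cells by IkappaB proteins. In the canonical pathway, a signal such as TNF or interleukin-1 activates the IKK kinase complex, IkappaB is phosphorylated and degraded, and dimers of RELA with the product of NFKB1 enter the nucleus. In the non-canonical pathway, the kinase encoded by MAP3K14 leads to processing of the NFKB2 precursor and frees dimers with RELB. Several regulators are themselves NF-kappaB targets and form negative feedback loops, among them NFKBIA and TNFAIP3. In endothelial cells the pathway is known for switching on adhesion molecules and chemokines that recruit leukocytes.

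The promoters of the members differ in whether they carry a kappaB element, the short sequence to which NF-kappaB dimers bind. RefSeq start sites (GRCh38.p14, not the build of the count table) with 250 bases before and 50 bases after the start were given for 8 of the 10 members, in 13 entries. RELB and NFKBIE were not among them. The kappaB consensus was matched in 8 of these 13 entries, belonging to 7 of the 8 genes, on either strand and with overlapping matches allowed. Over all 35116 promoters of the same length, 2075 (5.91%) held a match.

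Of the sequences below, the first 4 belong to the members whose levels the results turn on, and the fifth is the entry of RELA nearer the body of that gene, shown because it holds no match. Each is written 5′ to 3′ on the strand of the gene, and the capitals mark matches to the kappaB consensus, with overlapping matches merged into 1 run.
REL, chr2:60881324-60881623, plus strand: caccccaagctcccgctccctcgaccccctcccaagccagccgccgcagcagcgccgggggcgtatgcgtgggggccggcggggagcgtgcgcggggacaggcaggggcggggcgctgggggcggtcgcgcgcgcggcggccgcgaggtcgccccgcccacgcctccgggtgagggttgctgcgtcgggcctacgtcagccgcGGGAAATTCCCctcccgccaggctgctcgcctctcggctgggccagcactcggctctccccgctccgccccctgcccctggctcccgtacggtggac
TNFAIP3, chr6:137867009-137867308, plus strand: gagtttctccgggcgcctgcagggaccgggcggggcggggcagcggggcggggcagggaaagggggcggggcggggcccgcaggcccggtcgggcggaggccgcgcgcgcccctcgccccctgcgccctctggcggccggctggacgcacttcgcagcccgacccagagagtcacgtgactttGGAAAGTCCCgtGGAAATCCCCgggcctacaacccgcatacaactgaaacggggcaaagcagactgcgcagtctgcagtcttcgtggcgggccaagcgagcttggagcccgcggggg
BIRC3, chr11:102317234-102317533, plus strand: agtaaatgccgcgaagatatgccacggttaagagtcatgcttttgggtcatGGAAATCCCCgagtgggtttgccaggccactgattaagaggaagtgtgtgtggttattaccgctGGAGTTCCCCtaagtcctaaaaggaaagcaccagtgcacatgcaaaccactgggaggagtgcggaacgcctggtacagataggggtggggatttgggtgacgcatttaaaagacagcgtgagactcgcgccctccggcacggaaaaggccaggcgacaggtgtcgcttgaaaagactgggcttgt
NFKBIA, chr14:35404700-35404999, minus strand: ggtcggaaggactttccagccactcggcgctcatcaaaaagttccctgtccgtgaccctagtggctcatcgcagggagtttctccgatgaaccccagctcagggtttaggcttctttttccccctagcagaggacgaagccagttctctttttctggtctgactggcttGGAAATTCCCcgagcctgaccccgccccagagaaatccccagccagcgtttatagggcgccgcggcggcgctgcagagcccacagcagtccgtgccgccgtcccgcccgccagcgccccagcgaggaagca
RELA, chr11:65662867-65663166, minus strand: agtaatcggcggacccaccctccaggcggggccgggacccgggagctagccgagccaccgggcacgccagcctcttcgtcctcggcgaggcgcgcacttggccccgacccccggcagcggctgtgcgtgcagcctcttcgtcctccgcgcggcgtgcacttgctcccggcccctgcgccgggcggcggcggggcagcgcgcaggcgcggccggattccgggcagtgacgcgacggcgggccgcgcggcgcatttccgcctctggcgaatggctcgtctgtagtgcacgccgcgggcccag

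The matches of REL overlap each other and together span positions -47 to -37 from the start site, written GGGAAATTCCC. The matches of TNFAIP3 lie side by side, at -67 to -58 (GGAAAGTCCC) and at -55 to -46 (GGAAATCCCC). BIRC3 carries the latter 10 letters at -199 to -190 and GGAGTTCCCC at -135 to -126. NFKBIA has 1 match, GGAAATTCCC at -81 to -72. Among the others, NFKB1 has GGGAATTTCC at -49 to -40 of the first of 2 starts. NFKB2 has matches at 2 of its 3 starts, among them GGGACTTTCC at -21 to -12 of the last. NFKBIB has overlapping matches between -28 and -18 of the second of its 2 starts. These are matches of letters in a window and were not tested as binding sites.

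**Figure D1:**
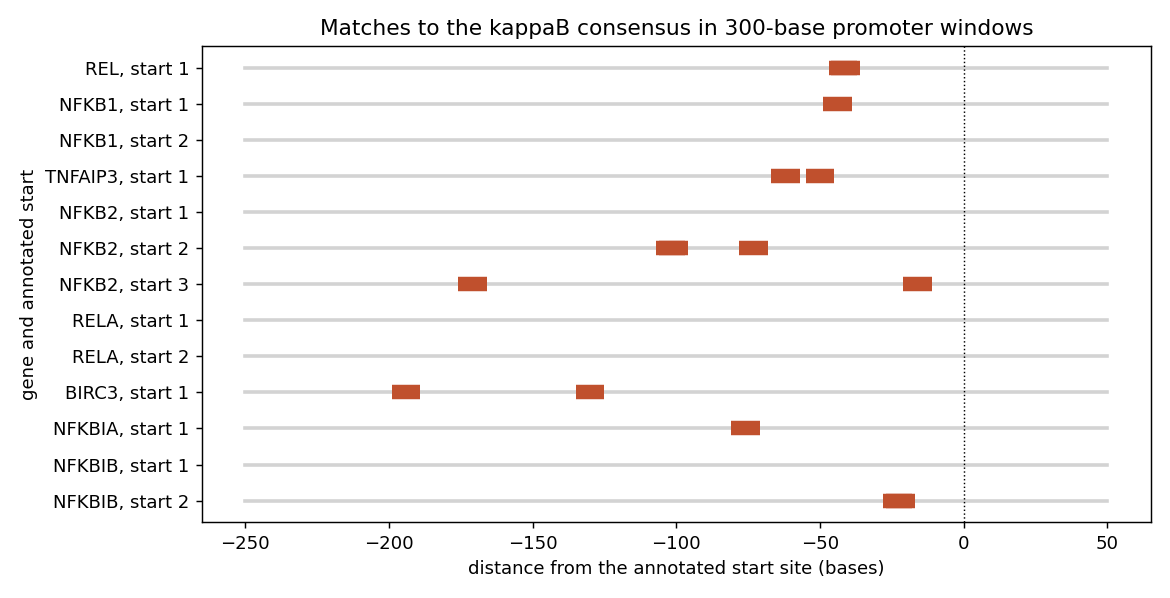
Positions of kappaB consensus matches in the 13 promoter entries of 8 members (vertical axis), in bases from the RefSeq start site (horizontal axis, negative values upstream). Marks show the bases covered by matches, overlapping ones merged, and 5 entries, among them both of RELA, hold none.

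The libraries had 69388544 to 90205244 counts, and every one of the 186768 values was an even number, which makes 2 counts the smallest step. Intervals were therefore computed from halved counts and cover counting error only. The libraries differed in how gene level related to transcript length. In replicates 1, 3, 4, 5 and 6 a doubling of length went with 0.09 to 0.15 more in log2 CPM, the count scaled by library size, relative to the gene's mean over the 8 libraries, while replicates 2, 7 and 8 had slopes of -0.23, -0.11 and -0.34. After the authors' conditional quantile normalisation (CQN), which includes an adjustment for transcript length and base composition, the slopes lay between -0.03 and 0.02. Members are therefore described on both scales.

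The line label was checked against marker genes. All 8 endothelial markers were detected, meaning that no library had them under 1 CPM, and their summed level was 1776 to 3297 CPM. Of 8 leukocyte markers, CD68 and LYZ were detected, and the list summed to at most 87.1 CPM in any library, of which CD68 gave a mean of 58.8. The mural list had 3 of 6 members detected and 22.6 to 36.5 CPM, the epithelial list 1 of 5 and 3.84 to 4.94 CPM, and the astrocyte list 0 of 4, with AQP4 at 0 in every library.

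All 10 members were among the 11980 genes detected. Per transcript length, the inhibitor NFKBIA and the subunit RELA stood above the others, and REL stood below them. Mean levels in RPKM (CPM per kilobase of the canonical transcript) were 83.0 ± 18.0 (SD, n = 8) for NFKBIA and 46.0 ± 6.33 for RELA. A middle group followed, with NFKBIB at 19.7 ± 3.95, NFKB2 at 17.0 ± 2.29, NFKB1 at 14.9 ± 1.10 and TNFAIP3 at 12.8 ± 4.14 RPKM. RELB had 9.12 ± 2.72, NFKBIE 7.89 ± 2.61, BIRC3 6.78 ± 2.45 and REL 0.521 ± 0.278 RPKM.

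Not every step of this order held in each library. NFKBIA was above RELA, RELA above NFKBIB, RELB above NFKBIE, and BIRC3 above REL in 8 of 8 libraries. NFKBIB was above NFKB2 in 7 libraries, by 0.19 ± 0.15 in log2 RPKM, and NFKB2 above NFKB1 in 6, by 0.19 ± 0.28. NFKB1 was above TNFAIP3 in 6 libraries, TNFAIP3 above RELB in 5, and NFKBIE above BIRC3 in 3. From NFKB2 to RELB, and for NFKBIE and BIRC3, the mean step was thus smaller than its SD over libraries. On the CQN scale the order of the top 2 and of the last was the same, with NFKBIA above RELA by 0.34 ± 0.28 in 7 of 8 libraries.

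**Figure D2:**
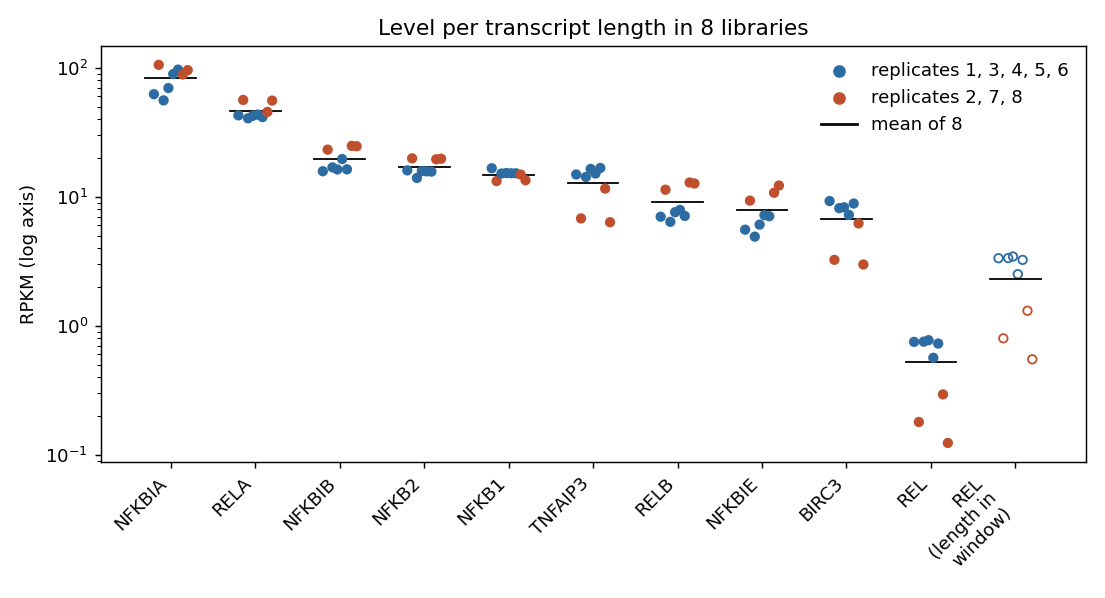
Level of each member per transcript length (RPKM, log axis) in each of the 8 replicates (points), ordered by mean (line), with replicates 2, 7 and 8 in orange and REL also at its length inside the table's window (open circles). NFKBIA and RELA lie above the other members in every replicate, and REL below them.

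The canonical subunits were the steadiest members. RELA, the main transactivating partner in canonical dimers, lies on chromosome 11 at 65421067 to 65430443 (GRCh37, minus strand, 11 exons). It had 108, 142, 102, 107, 109, 104, 114 and 140.2 CPM in replicates 1 to 8. Replicates 2 and 8 were the highest, and the other 6 lay between 102 and 114.

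NFKB1, which encodes a precursor whose processed product is the partner of RELA, lies on chromosome 4 at 103422486 to 103538459 (plus strand, 24 exons). Its CPM values were 67.5, 53.6, 61.4, 61.9, 61.7, 61.7, 60.3 and 54.5, so that replicates 2 and 8, the highest for RELA, were the lowest for NFKB1. The SD of NFKB1 over libraries was 0.11 in log2 CPM, smaller than that of all but 8.24% of detected genes, and 0.07 on the CQN scale. RELA had SDs of 0.19 and 0.10, against medians of 0.28 and 0.16 over detected genes. After CQN, RELA was at its lowest in replicates 8 (7.57), 7 (7.62) and 2 (7.69), with the other 5 libraries between 7.80 and 7.84, so the direction for RELA in these libraries depends on the scaling. NFKB1 was lowest in replicates 2 (6.24) and 8 (6.32) after CQN too. In log2 CPM it deviated from its mean by -0.17 and -0.14 there. The 200 detected genes nearest to it in length had median deviations of -0.12 and -0.13.

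Of the non-canonical subunits, RELB had a lower mean per length than both canonical ones. NFKB2, at 17.0 RPKM, was below RELA (46.0) and not below NFKB1 (14.9). NFKB2, whose long precursor acts as an inhibitor until it is processed, lies on chromosome 10 at 104154229 to 104162281 (plus strand, 23 exons). It had 48.3, 59.9, 42.2, 47.7, 47.5, 47.3, 58.9 and 59.5 CPM, with replicates 2, 7 and 8 above the other 5. Its CQN values spanned 6.19 to 6.54, and there replicates 2 and 8 were the lowest.

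RELB, its dimer partner, lies on chromosome 19 at 45504707 to 45541456 (plus strand, 12 exons). It had 15.8, 25.6, 14.4, 17.2, 17.9, 16.0, 29.2 and 28.6 CPM, and replicates 2, 7 and 8 again lay above the rest. After CQN only replicate 7 did, at 6.11 against 5.51 to 5.73 in the other libraries.

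REL, a subunit best known from lymphoid cells, was the lowest and most variable member. It lies on chromosome 2 at 61108752 to 61150178 (plus strand, 10 exons) and had 8.33, 1.99, 8.36, 8.59, 6.27, 8.09, 3.26 and 1.37 CPM in replicates 1 to 8. Replicates 2, 7 and 8 were below all others, and the highest library stood 6.26-fold above the lowest. Counting error did not span this range: the 95% Wilson interval was 7.69 to 9.60 CPM in replicate 4 and 1.06 to 1.77 CPM in replicate 8, where REL had 116 counts. The level of REL per length depends on the transcript used. The canonical transcript is 11108 nt long, but 8569 nt of it lie beyond the 3′ end of the gene window in the table, and the 2496 nt inside the window (22.5%) give a mean of 2.32 ± 1.24 RPKM, still the lowest of the members. How far the window limited the counting was not tested.

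**Figure D3:**
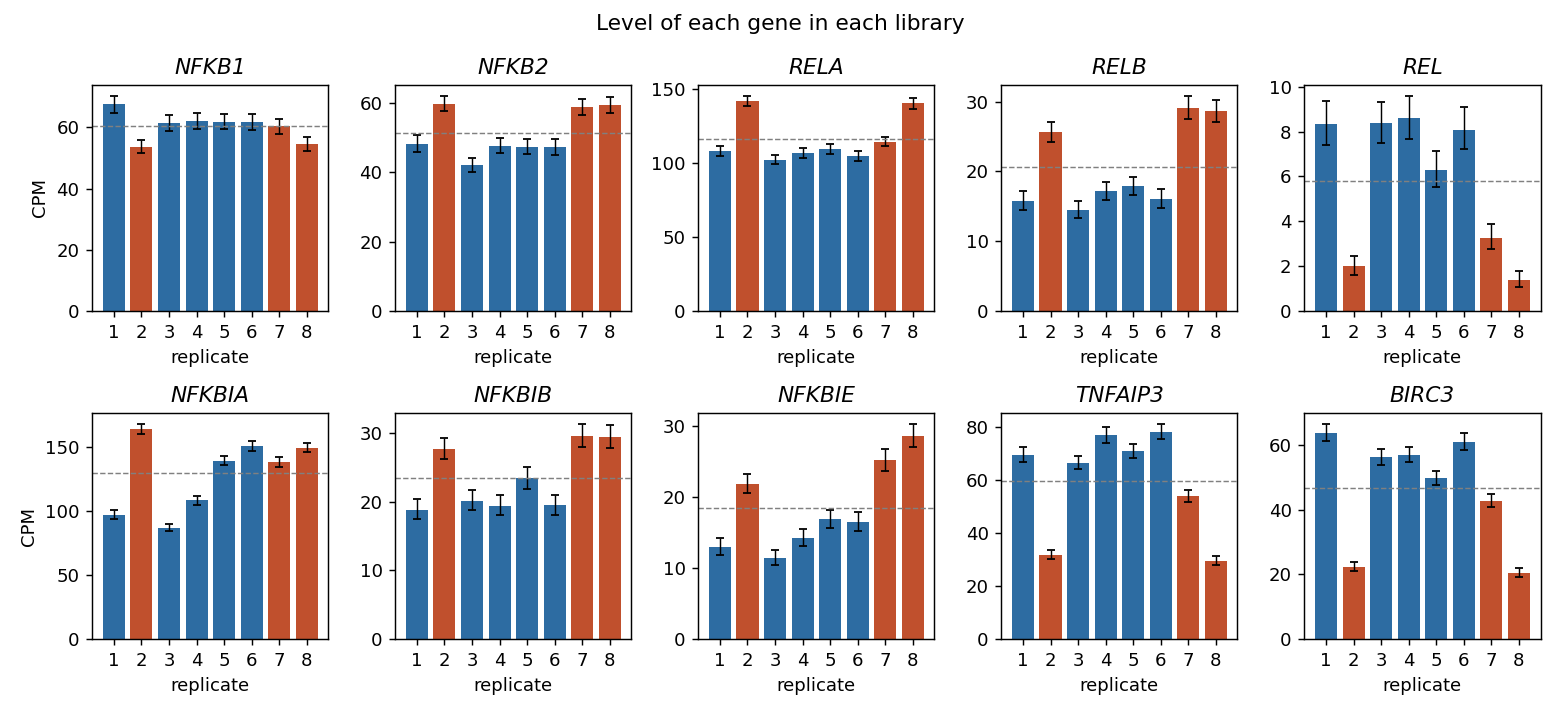
Level of each member in CPM (vertical axes, linear, from 0) in replicates 1 to 8 (horizontal axes), with 95% Wilson counting intervals as bars and the mean of the 8 as a dashed line. Orange marks replicates 2, 7 and 8, where level fell with transcript length. REL, TNFAIP3 and BIRC3 have their lowest values in replicates 2 and 8, and RELB and NFKBIE are highest in replicates 7 and 8.

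Among the inhibitors, NFKBIA, which encodes the IkappaB protein that is resynthesised after each round of activation, lies on chromosome 14 at 35870716 to 35873960 (minus strand, 6 exons). It had 97.3, 164, 87.1, 109, 139.5, 151, 138 and 149.6 CPM. It was low in replicates 1, 3 and 4 and higher in the other 5, so replicates 5 and 6 were here as high as replicates 7 and 8. Its CQN value was highest in replicate 6, at 8.59, and lowest in replicate 3, at 7.74.

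NFKBIB, which encodes a slower-acting IkappaB, lies on chromosome 19 at 39390340 to 39399534 (plus strand, 6 exons) and had 18.8 to 29.6 CPM (23.5 ± 4.70), with replicates 2, 7 and 8 above the rest. Its CQN values ran from 5.38 in replicate 8 to 5.82 in replicate 7. Its annotated position overlaps SIRT2, and since the use of strand in counting is not given in the sources used here, reads from the overlap cannot be assigned with certainty. NFKBIE, a further IkappaB gene, lies on chromosome 6 at 44225903 to 44233525 (minus strand, 6 exons). It had 13.0, 21.9, 11.5, 14.3, 16.9, 16.6, 25.2 and 28.7 CPM, a 2.49-fold range. Its CQN values spanned 4.72 to 5.54, with replicate 7 highest and replicate 3 lowest.

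The ubiquitin-handling regulators had their lowest values in replicates 2 and 8, where the inhibitors were high in CPM. After CQN the inhibitors were not all high there. Their deviations from the gene mean in replicates 2 and 8 were 0.10 and -0.23 for NFKBIA and -0.13 and -0.17 for NFKBIB. For NFKBIE they were -0.08 and 0.20. TNFAIP3, a ubiquitin-editing enzyme that shuts off signalling to IKK, lies on chromosome 6 at 138188581 to 138204449 (plus strand, 9 exons). It had 69.5, 31.7, 66.4, 76.8, 70.7, 78.1, 54.0 and 29.6 CPM. Replicates 2 and 8 lay below the range of 54.0 to 78.1 CPM seen in the other 6. After CQN these 2 libraries were still low, both at 5.49 against 6.18 to 6.62 in the others.

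BIRC3, a ubiquitin ligase recruited with TRAF2 to the TNF receptor complex, lies on chromosome 11 at 102188181 to 102210135 (plus strand, 9 exons). It had 63.7, 22.3, 56.1, 57.0, 49.8, 61.0, 42.7 and 20.5 CPM, a 3.10-fold range with replicates 2 and 8 lowest. In CQN values these libraries were again lowest, at 5.10 and 5.19, and the whole range was 0.62.

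Ratios between members were compared on log2 RPKM within each library, for 10 pairs, by exact permutation of the signs of the 8 library ratios (two-sided). The smallest p that 8 libraries allow is 0.00781, which becomes 0.00868 after Benjamini-Hochberg adjustment over the pairs. It was reached by 9 of the 10 pairs, each of which had the same direction in 8 of 8 libraries. A pair with 1 direction in all 8 libraries gets this p whatever the size of its ratio. The pairs were chosen with earlier results of these data known. The transactivating subunit RELA exceeded NFKB1 by 1.61 ± 0.29 and RELB by 2.36 ± 0.28 in log2 RPKM. It exceeded REL by 6.37 ± 0.98, or by 4.49 ± 1.17 with the length of REL inside the window. At the canonical length and with a pseudocount of 1 in place of 0.1, RELA exceeded REL by 4.96 ± 0.45. NFKB2 exceeded its partner RELB by 0.94 ± 0.23. The precursor genes NFKB1 and NFKB2 differed by -0.19 ± 0.28, with NFKB1 higher in 2 of 8 libraries (exact permutation p = 0.156), which did not pass.

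In the same test, NFKBIA exceeded the other IkappaB genes, NFKBIB by 2.06 ± 0.26 and NFKBIE by 3.41 ± 0.27 in log2 RPKM. It also exceeded RELA, the subunit its protein binds, by 0.83 ± 0.26. TNFAIP3 was below NFKBIA, with a log2 ratio of -2.74 ± 0.79. BIRC3 was below its paralog BIRC2, which had 23.6 ± 6.09 RPKM, with a log2 ratio of -1.84 ± 0.31. The length used decided 2 of these comparisons. With no division by length NFKBIA and RELA differed by 0.14 ± 0.26 in log2 CPM (exact permutation, adjusted p = 0.172), and with merged exon lengths in place of the canonical transcript the ratio of NFKB1 to NFKB2 was -1.23 ± 0.27 (adjusted p = 0.00781).

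Whether a member varied between the replicates more than genes of its abundance do was tested in edgeR, by goodness of fit to the dispersion trend (gof), adjusted over all 11980 detected genes. Of the members, 1 of 10 was above the trend, REL, with an edgeR adjusted p of 1.67e-05. Over all detected genes 558 were called (4.66%). BIRC3 had an adjusted p of 0.0518, TNFAIP3 0.176, NFKBIE 0.606 and RELB 0.891, and the other 5 had 1. At an unadjusted p under 0.05, REL, BIRC3 and TNFAIP3 passed, and 1571 genes in all did.

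The BIRC3 value lay near the threshold and rested on replicates 2 and 8. Its edgeR adjusted p was 0.0495 without replicate 7, up to 0.207 (without replicate 2) when another library was left out, and 1.00 without replicates 2 and 8. The call on REL rested on the libraries with negative length slopes. Leaving out any 1 library gave edgeR adjusted p-values from 2.44e-05 to 6.72e-04 (3.15% to 4.09% of genes called), and leaving out replicates 2 and 8 gave 0.0168 (2.75%). Without replicates 2, 7 and 8 the edgeR unadjusted p was 0.311, and REL spanned 6.27 to 8.59 CPM over the other 5. With the authors' CQN adjustment as offsets, REL was called in edgeR (adjusted p = 1.12e-06), TNFAIP3 was called too (0.00163), and BIRC3 had an adjusted p of 1, beside 6.23% of genes called. With these offsets and without replicates 2 and 8, REL was at 0.00813 and TNFAIP3 at 1 (3.96% called).

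The authors' adjustment narrowed the spread of these genes unequally. Going from log2 CPM to CQN, the SD over libraries of BIRC3 went from 0.65 to 0.23, a ratio of 2.87. That of REL went from 1.03 to 0.87 and that of TNFAIP3 from 0.56 to 0.45, ratios of 1.18 and 1.25. RELB went from 0.41 to 0.19 and NFKBIE from 0.46 to 0.26. Over the 10 members the median SD was 0.37 in log2 CPM and 0.21 on the CQN scale, beside 0.28 and 0.16 over detected genes.

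The same contrast appeared against genes of like length. In replicate 8 REL deviated by -1.74 from its own mean in log2 CPM, while the 200 detected genes nearest to its canonical length had a median deviation of -0.73. In replicate 2 the values were -1.23 and -0.55, and in replicate 7 -0.54 and -0.26. After CQN, REL was at -1.46, -1.05 and -0.48 in replicates 8, 2 and 7, and these genes at -0.13, -0.10 and -0.04. The comparison depends on the length given to REL. The 200 genes nearest to its 2496 nt inside the window had median deviations of 0.12, 0.08 and 0.02 in log2 CPM in replicates 8, 2 and 7. TNFAIP3 was at -0.92 in replicate 8 and -0.82 in replicate 2, against -0.21 and -0.12 for its nearest 200, and at -0.70 and -0.69 after CQN. BIRC3 was at -1.07 and -0.95 against -0.39 and -0.24, and after CQN at -0.30 and -0.39. So REL, TNFAIP3 and BIRC3 were each lower in replicates 2 and 8 than the median gene of their length, on both scales. In replicate 7 this held for REL only: TNFAIP3 was at -0.06 in log2 CPM against -0.09, and BIRC3 at -0.02 against -0.11. Of the inhibitors, NFKBIA and NFKBIB were at 0.24 and 0.35 in log2 CPM in replicate 8, below the 0.48 and 0.54 of their nearest 200. NFKBIE was at 0.70 there, above the 0.24 of its nearest 200. In replicate 2 NFKBIA was above its nearest 200 (0.38 against 0.30) and NFKBIB below (0.26 against 0.34). In replicate 7 NFKBIA was level with them (0.13 against 0.13) and NFKBIB above (0.36 against 0.15). NFKBIE was above its nearest 200 in replicates 2 (0.31 against 0.14) and 7 (0.51 against 0.07) as well.

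REL also differs from most genes in how much of its transcript lies beyond the window of the table. Of 11636 detected genes with an annotated length, 301 (2.59%) have 5000 nt or more of the canonical transcript beyond the 3′ end. Their median deviations in log2 CPM were -0.22, -0.07 and -0.28 in replicates 2, 7 and 8. Of the 300 such genes other than REL, 13 were lower than REL in replicate 2, 16 in replicate 7 and 7 in replicate 8.

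**Figure D4:**
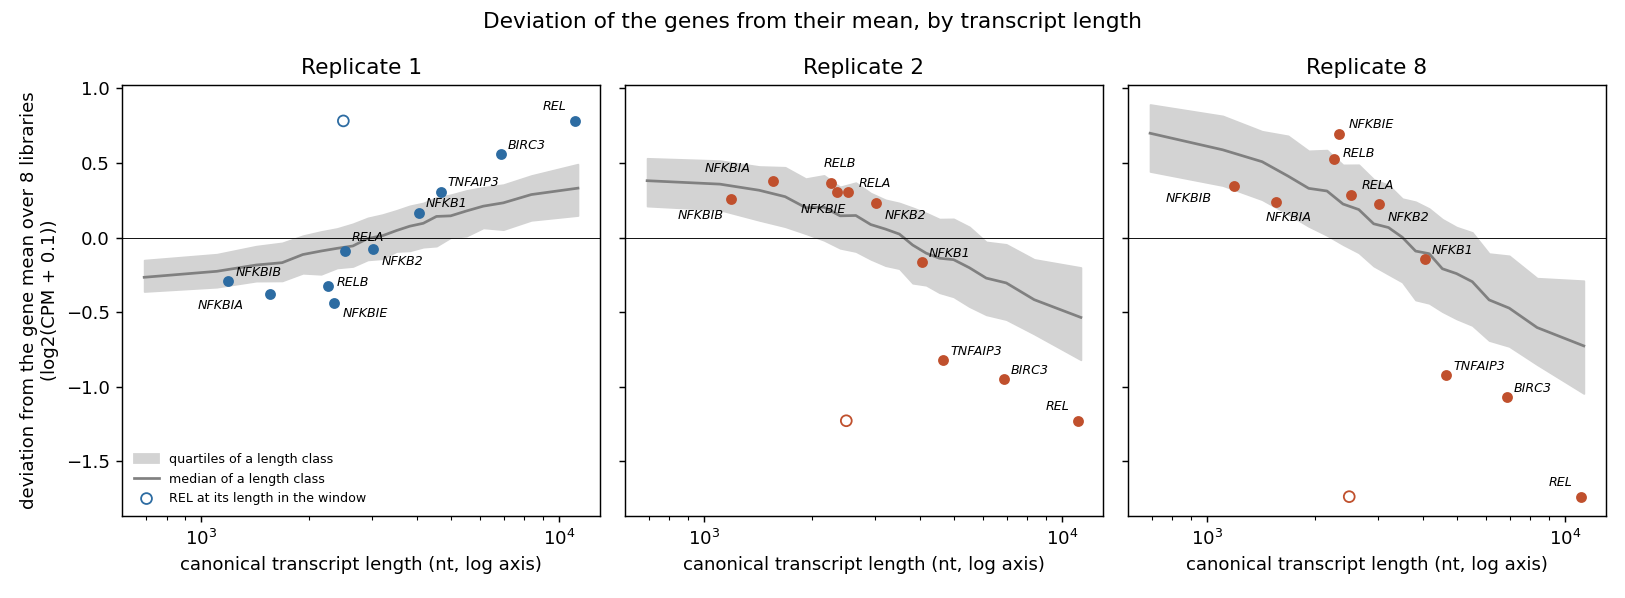
Deviation of each member from its mean over the 8 libraries (vertical axes, log2(CPM + 0.1)) against canonical transcript length (horizontal axes, nt, log scale) in replicates 1, 2 and 8. The line and band are the median and quartiles of 20 length classes of detected genes, and the open circle is REL at its length inside the window. In replicates 2 and 8 TNFAIP3, BIRC3 and REL lie below the band.

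In the 5 libraries with positive length slopes a different member stood out, NFKBIA. In replicates 1, 3, 4, 5 and 6 NFKBIA ranged from 87.1 to 151 CPM, a 1.73-fold range, and its SD in log2 CPM was larger than that of 98.2% of detected genes. RELA spanned 1.07-fold, NFKB1 1.10-fold, TNFAIP3 1.17-fold and BIRC3 1.28-fold in the same libraries. The next widest were NFKBIE, at 1.47-fold, and REL, at 1.37-fold. In the edgeR test on these 5 libraries NFKBIA was the 1 member called (adjusted p = 2.68e-06), beside 297 of 12275 genes (2.42%). Over all 8 libraries its adjusted p was 1, or 0.333 with CQN offsets. Without replicates 2 and 8 it was 0.231 in edgeR, or 0.00231 with CQN offsets (3.96% of genes called). NFKBIA was thus called in 2 of these 5 fits. These sets of libraries were chosen after the data were seen.

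**Figure D5:**
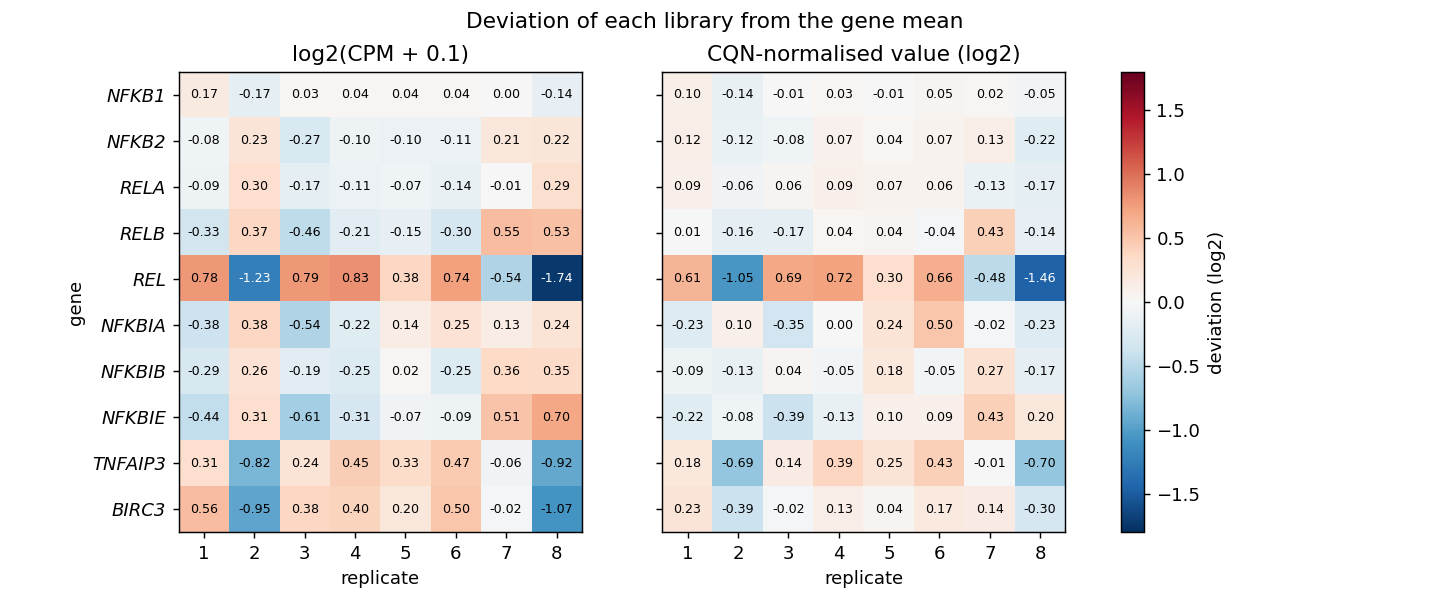
Deviation of each member (rows) from its mean over the 8 replicates (columns), on the log2 CPM scale and on the CQN scale. Blue and red cells lie below and above the mean. REL and TNFAIP3 keep their low values in replicates 2 and 8 on the CQN scale, and those of BIRC3 in these libraries come closer to 0.

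The rest of the pathway was examined with 4 lists of 56 genes, of which 52 were detected. Over these, 4 were above the variation trend in edgeR's test, beside the 4.66% of all detected genes. Of the 8 fits that leave out 1 library, SHARPIN was called in 1 (without replicate 7), NFKBIZ in 5, CXCL8 in 6 and CXCL2 in 3, and without replicate 4 none of the 52 was called by edgeR. With CQN offsets 7 of 52 were called, beside 6.23% of genes. The 11 IKK subunits and upstream kinases were all detected and 0 of 11 were called by edgeR. At an unadjusted p under 0.05 there was 1, TAB3, beside 1571 of all 11980 detected genes. With the DESeq2 dispersion trend 1 of 11 was called, TAB3, beside 23.5% of all genes. With CQN offsets the edgeR unadjusted p of TAB3 was 0.855. The highest of the list per length were TAB2 (21.9 ± 4.74 RPKM), TBK1 (21.7 ± 4.05) and IKBKG, the regulatory IKK subunit (20.2 ± 5.40). The catalytic subunits CHUK and IKBKB had 17.3 ± 3.73 and 14.6 ± 1.75 RPKM, close to NFKB1, and MAP3K14 had 6.17 ± 0.98.

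Of 14 adaptor and ubiquitin ligase genes, all detected, 1 was called, beside 4.66% of all detected genes. It was SHARPIN, a subunit of the linear ubiquitin ligase (adjusted p = 0.0473 by edgeR). It had 72.5, 51.9 and 88.7 CPM in replicates 2, 7 and 8 and 32.0 to 36.3 in the others, and with CQN offsets its adjusted p was 1. The highest of this list at canonical length were IRAK1 (71.2 ± 7.13 RPKM), SHARPIN (35.3 ± 16.1) and MYD88 (27.5 ± 3.87). The places below IRAK1 depend on the length used. RBCK1, at a mean of 92.3 CPM, had 24.9 ± 7.98 RPKM at its canonical 3701 nt, of which 2528 nt lie inside the window. Of 13 further feedback and IkappaB-like genes, all detected, 1 was called, beside the same 4.66%. It was NFKBIZ, an inducible nuclear IkappaB (edgeR adjusted p = 0.0269, or 0.000311 with CQN offsets, which called 6.23% of genes). NFKBIZ ranged from 9.63 CPM in replicate 8 to 42.1 in replicate 3 and, like TNFAIP3 and REL, had its lowest values in replicates 2 and 8. TNIP1, which binds the TNFAIP3 protein, led this list at 49.2 ± 7.58 RPKM, followed by TAX1BP1 (46.0 ± 5.76) and RNF11 (43.5 ± 6.00).

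Of 18 target genes 14 were detected, and CXCL3, CCL20, BCL2A1 and TNF were not. At canonical length the highest were the stress-response gene IER3 (90.9 ± 10.5 RPKM), the chemokine CXCL1 (41.2 ± 11.6) and the adhesion molecule ICAM1 (39.8 ± 6.68). The places below IER3 depend on the length used. SOD2, at a mean of 180 CPM, had 12.7 ± 1.83 RPKM at its canonical 14167 nt, of which only 4119 nt lie inside the window. Above the trend were 2 of the 14, beside 4.66% of all detected genes. They were the chemokine genes CXCL8 (adjusted p = 0.0289 by edgeR) and CXCL2 (0.0232). With CQN offsets, which called 6.23% of genes, these adjusted p-values were 1.41e-05 and 1.28e-05 in edgeR (listed as IL8 and CXCL2). CXCL8 had 26.3, 11.7, 20.5, 35.5, 14.2, 25.1, 15.5 and 8.47 CPM, highest in replicate 4.

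Over the 5 libraries with positive length slopes, the targets CXCL2, VCAM1, SELE, CXCL8, CXCL1 and CCL2 had CPM ranges of 3.56-fold, 3.25-fold, 2.70-fold, 2.51-fold, 2.18-fold and 2.11-fold. Each of these 6 was lowest in replicate 5, where NFKBIA was at 139.5 CPM, its second highest of the 5. The adhesion gene ICAM1 was lowest in replicate 3 and highest in replicate 6, as NFKBIA was. The target IER3 was also lowest in replicate 3. A low in replicate 5 was not particular to the 6 targets. It was also the lowest of the 5 for the targets SOD2 and CFLAR, the members REL and BIRC3, and NFKBIZ, MYD88, TAB2, TAX1BP1 and RNF11. The targets named here were picked from the list after their values were seen. In edgeR's test on these 5 libraries 8 of 52 pathway genes were called, beside 2.42% of all genes: NFKBIZ, CXCL8, CXCL1, CXCL2, CCL2, ICAM1, VCAM1 and SELE.

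Likeness between genes was described by Pearson's r of the CQN values over the 8 libraries, which share depth and composition. Between members, REL and TNFAIP3 had r = 0.94, NFKB1 and BIRC3 0.94, and TNFAIP3 and BIRC3 0.91, and each of these was also positive on log2 CPM. REL and RELA had r = 0.92 on this scale and -0.95 on log2 CPM, and NFKB2 and BIRC3 0.91 and -0.83, so these relations turned with the scaling. Outside the members, the genes most like REL were RP2 and EXOC6B (both r = 0.998), and 1091 of 11970 genes reached r = 0.9 with REL. For TNFAIP3 they were HIST1H2BJ and RPS18, with 794 genes at this level, for RELA SCAMP2 and TOP1, with 591, and for NFKBIB C6orf132 and GTPBP4, with 270. For BIRC3 they were NDST2 and IL32, with 178, for NFKB2 PLEKHM3 and ZC3H7A, with 72, and for RELB HTT and MRPL54, with 34. NFKB1 had USP54 and ZFYVE26, with 26 genes at this level, and NFKBIE had MLK7-AS1, which overlaps ZAK, and YIPF5, with 21. NFKBIA had the fewest, 1 gene, MFSD3 (r = 0.93), followed by the clock gene PER1 (0.89). Several of these likenesses were negative on log2 CPM: RPS18 with TNFAIP3 (-0.93), TOP1 with RELA (-0.91), PLEKHM3 and ZC3H7A with NFKB2 (-0.87 and -0.77), HTT with RELB (-0.83), IL32 with BIRC3 (-0.66) and YIPF5 with NFKBIE (-0.33). For NFKBIB, GTPBP4 was at -0.05 on that scale, and for NFKBIE MLK7-AS1 was at 0.09.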

How the data were processed

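Polyadenylated RNA of 8 replicate libraries of hCMEC/D3 was measured. The authors deposited 1 table with raw counts per gene, per the file headers, as whole numbers that were not normalised, and CQN values, which the deposited numbers show to be on a log2 scale, for 13962 genes. CASAVA 1.9, TopHat2 2.0.6, HTSeq and hg19 are named in the submitters' processing notes, without roles. The annotation and the use of strand are not given in the sources used here.

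CPM values were computed from the counts with TMM-scaled library sizes (edgeR 4.0.16, R 4.3.3), and detection meant 1 CPM or more in every library. RPKM used canonical transcript lengths of GENCODE lifted to GRCh37. Starts in the table were mostly 1 below this annotation, so positions are printed 1-based from the annotation. Logs used a pseudocount of 0.1. Variation was tested with an intercept-only edgeR model and its goodness-of-fit test, with Benjamini-Hochberg adjustment and a threshold of 0.05. The test was tried on simulated counts with known changes. Total counts were 69388544 to 90205244. CXCL8 is listed as IL8 in the table.

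The members, the lists and the pairs were chosen with earlier results of these data known. Named besides the members were the genes of the pairs, the called, 3 highest and undetected genes of each list, and the 2 genes most like each member. CHUK, IKBKB, MAP3K14, RBCK1, SOD2 and the targets of the 5-library paragraph were added after their values were seen. Alternatives were DESeq2 1.42.0 size factors and dispersion trend, other filters, lengths and pseudocounts, CQN offsets, halved counts and left-out libraries.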

Additional observations from a re-analysis of the deposited data

Results flagged for a closer look

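RELB was singled out on the CQN scale because replicate 7 lay far from the other 7 libraries. Its value there was 6.11, the others lay between 5.51 and 5.73, and the gap to the nearest was 0.638 of the whole range, above Dixon's 95% critical value for 8 samples. In CPM the same library, at 29.2, was also the highest, next to 28.6 in replicate 8. Of 30 such sets of 8 values examined (10 members on 2 scales and 10 pair ratios), 1 passed, and chance passes about 1 in 20.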

How the results depend on the processing

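The 10 members were detected under each filter and scaling tried. The number above the variation trend, 1 as reported, was 2 with DESeq2 size factors (REL and BIRC3), 4 with the DESeq2 dispersion trend, which called 2811 genes (23.5%), 2 with CQN offsets, 2 with CQN offsets and without replicates 2 and 8, and 1 to 2 when 1 library was left out. For the pathway lists the count of 4 became 2 with no filter on low counts, 16 with the DESeq2 trend, 7 with CQN offsets, 8 without replicates 2, 7 and 8, 11 with CQN offsets and without replicates 2 and 8, and 0 to 3 with 1 library left out. The share called over all genes was 4.66% as reported, 4.71% with DESeq2 size factors and 3.28% with no filter on low counts. It was 23.5% with the DESeq2 trend, 6.23% with CQN offsets and 2.42% without replicates 2, 7 and 8. With CQN offsets and without replicates 2 and 8 it was 3.96%, and with 1 library left out 3.15% to 4.09%. The cause of the changes in these counts was not tested. Of the pair ratios, NFKB1 to NFKB2 was -1.23 with merged exon lengths and reversed to 0.24 with no length (-0.23 to -0.13 with 1 library left out), and NFKBIA to RELA was 0.14 with no length. The other 8 ratios kept their direction and call under every setting tried, but not their size. RELA to REL was 6.37 as reported and 4.96 with a pseudocount of 1. Over all genes the 558 calls became 381 without replicate 8, 335 without replicates 2 and 8, and 297 without replicates 2, 7 and 8. No paired analysis was possible because all libraries belong to 1 group. With 8 libraries and 116 to 638 counts, the precision of REL is the lowest of the members.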
